A study of Mus musculus with 4 samples.

Results

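The mouse chromosome 16 probe sets without a name are 395 of the 16755 probe sets measured in kidney epithelial cells with and without fumarate hydratase (FH). A probe set is a group of short probes that together read the RNA of 1 locus. Gene names and chromosomes are given only in the authors' table of 1616 probe sets that passed their own comparison of the same cells, so the members were chosen by measured values: each is missing from that table. A member was placed on chromosome 16 because its number lies between successive numbers of the table that are both mapped to chromosome 16. Nothing used here gives the gene that a member reads, and no gene is named for any of them. Because the choice and the values described here rest on the same contrast, all differences of members between genotypes are descriptions and carry no test.

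The study asked which metabolic changes follow the loss of FH, the enzyme that converts fumarate to malate in the tricarboxylic acid cycle. The arrays compare Fh1Δ/Δ cells, in which the gene was knocked out, with their isogenic Fh1fl/fl control, which carries the floxed gene and is called wild type in the labels. Both lines are immortalised, come from a C57BL/6 background and were grown untreated in normoxia in DMEM with 10% serum and 2 mM glutamine, to which the study's methods add pyruvate and uridine. The 4 arrays, 2 for each genotype, are called biological replicates with no word on separate cultures or clones, so that every spread and p-value given here measures only how far these arrays lie apart, which may be technical.

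Fh1 itself, the targeted gene, had log2 levels of 9.21 and 9.14 on the Fh1Δ/Δ arrays, against 10.48 and 10.45 on the Fh1fl/fl arrays. The log2 difference was -1.29 (standard error 0.11, adjusted p = 0.00578 from limma), in the direction that the labels give. None of the markers of kidney epithelium, fibroblasts, endothelium or immune cells that were looked up has a name in the table, so the labelled cell type could not be checked. The 4 arrays had medians between 7.18 and 7.32, and replicates correlated at 0.992 in both genotypes, across probe sets, which are not independent replicates.

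Mouse chromosome 16 brings together stretches that are spread over several human chromosomes. Its proximal part holds the counterparts of genes that are lost in DiGeorge syndrome, and its distal part holds counterparts of genes on the human chromosome that is present in an extra copy in Down syndrome. A whole-transcript array reads RNA, probe set by probe set, and on this design neighbouring numbers belong to neighbouring loci, so that an unnamed probe set still has a position between named genes.

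Over all 395 members, levels in Fh1Δ/Δ cells were lower than in Fh1fl/fl cells, mostly by small amounts. The median log2 level over the members, taken on each array separately, was 6.43 and 6.53 on the Fh1Δ/Δ arrays, against 6.75 and 6.72 on the Fh1fl/fl arrays. Both Fh1Δ/Δ medians lay below both Fh1fl/fl medians, while the medians of the whole arrays were 7.32 and 7.27 in Fh1Δ/Δ cells and 7.22 and 7.18 in Fh1fl/fl cells. The median log2 difference of the members, Fh1Δ/Δ minus Fh1fl/fl, was -0.21, with a range of -0.21 to -0.16 over the 4 pairs of 1 Fh1Δ/Δ and 1 Fh1fl/fl array, and 282 members were lower and 113 higher. The size of this median depended on the scaling, with -0.05 once a trend with brightness was removed, -0.10 after quantile normalization and -0.30 after centring each array on its median. In bulk RNA, a change in which cells are present and a change in RNA per cell cannot be told apart.

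The lower median has a background that is shared by the whole array. All 16755 probe sets had a median difference of -0.11, and so had the 14165 probe sets without a name on other chromosomes. Of all probe sets, 10257 were lower and 6498 higher in Fh1Δ/Δ cells. That background lay in the dim probe sets. Among brighter ones, whose mean level over the 4 arrays is above 7.24, the median of all probe sets, the unnamed probe sets of other chromosomes had a median of 0.01 and 51.0% of them were higher in Fh1Δ/Δ cells. The 168 brighter members had a median of -0.12 (-0.16 to -0.08 over pairs), and 38.7% of them were higher in Fh1Δ/Δ cells. Their median levels were 8.90 and 8.88 in Fh1Δ/Δ cells, against 9.07 and 9.11 in Fh1fl/fl cells.

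The difference was not even along the chromosome. In the order of probe set numbers the 64 table genes mapped to chromosome 16 form 2 runs. In the run from Zfp263 to Cbr3, all 31 table genes were found on chromosome 16 of the mouse reference GRCm38.p6, 26 on the forward strand and 0 on the reverse strand (no strand was found for the rest), and each of 30 steps went forward along the chromosome. In the run from Btbd12 to Tmprss2, all 33 table genes were found, 0 on the forward and 28 on the reverse strand (again with no strand for the rest), and each of 32 steps went forward again. The chromosome is therefore walked along once for each strand. The forward-strand run holds 192 members and the reverse-strand run 187, and 16 more have numbers between Cbr3 and Btbd12, at the end of one run or the start of the other. Members lie in 46 of the 63 intervals between successive table genes, and 282 of them lie in the 11 intervals that hold 10 or more.

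In both runs the stretches of members with the lowest medians came first, near the start of the chromosome. Single low members also lay further along, up to the last intervals that hold members. On the reverse strand no member was placed after the table gene D16Ertd472e. The distal members of that strand therefore do not reach Tmprss2, the last mapped table gene, and leave out the end of the chromosome. All mapped table genes up to Dnajb11 on the forward strand and up to Rfc4 on the reverse strand were lower in Fh1Δ/Δ cells. Dnajb11 and Rfc4 are loci that lie close together, and the mapped table genes beyond them went both ways. Members before these genes are called proximal here and members after them distal, a division made after the values had been seen. The 124 proximal members had a median difference of -0.33 (-0.39 to -0.29 over pairs), with 108 lower and 16 higher in Fh1Δ/Δ cells. The 255 distal members had a median of -0.15 (-0.15 to -0.10 over pairs), with 164 lower and 91 higher, close to the -0.11 of the array.

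Brighter members set the proximal and distal parts further apart. The 50 brighter proximal members had median levels of 8.17 and 8.11 on the Fh1Δ/Δ arrays, against 8.38 and 8.49 on the Fh1fl/fl arrays. Both Fh1Δ/Δ arrays lay below both Fh1fl/fl arrays. Their median difference was -0.44 (-0.54 to -0.38 over pairs), which is a change of -26.4% on the linear scale, and 43 of them were lower and 7 higher. The 111 brighter distal members had median levels of 9.32 and 9.17 on the Fh1Δ/Δ arrays, against 9.33 and 9.30 on the Fh1fl/fl arrays. Here the upper Fh1Δ/Δ array lay between both Fh1fl/fl arrays. The median difference was -0.03 (-0.10 to 0.01 over pairs), with 57 lower and 54 higher, and this small value was -0.12 after centring each array and 0.01 both with a trend with brightness removed and without Fh1Δ/Δ replicate 2.

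Both strands were low in the proximal part. The 23 brighter proximal members of the forward-strand run had a median of -0.48, with 20 lower and 3 higher in Fh1Δ/Δ cells. The 27 of the reverse-strand run had a median of -0.43, with 23 lower and 4 higher. Beyond the division the brighter medians were -0.07 over 62 members of the forward-strand run and 0.02 over 49 members of the reverse-strand run. The 16 members between the runs had a median of -0.11, and the 7 brighter ones 0.06.

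**Figure D1:**
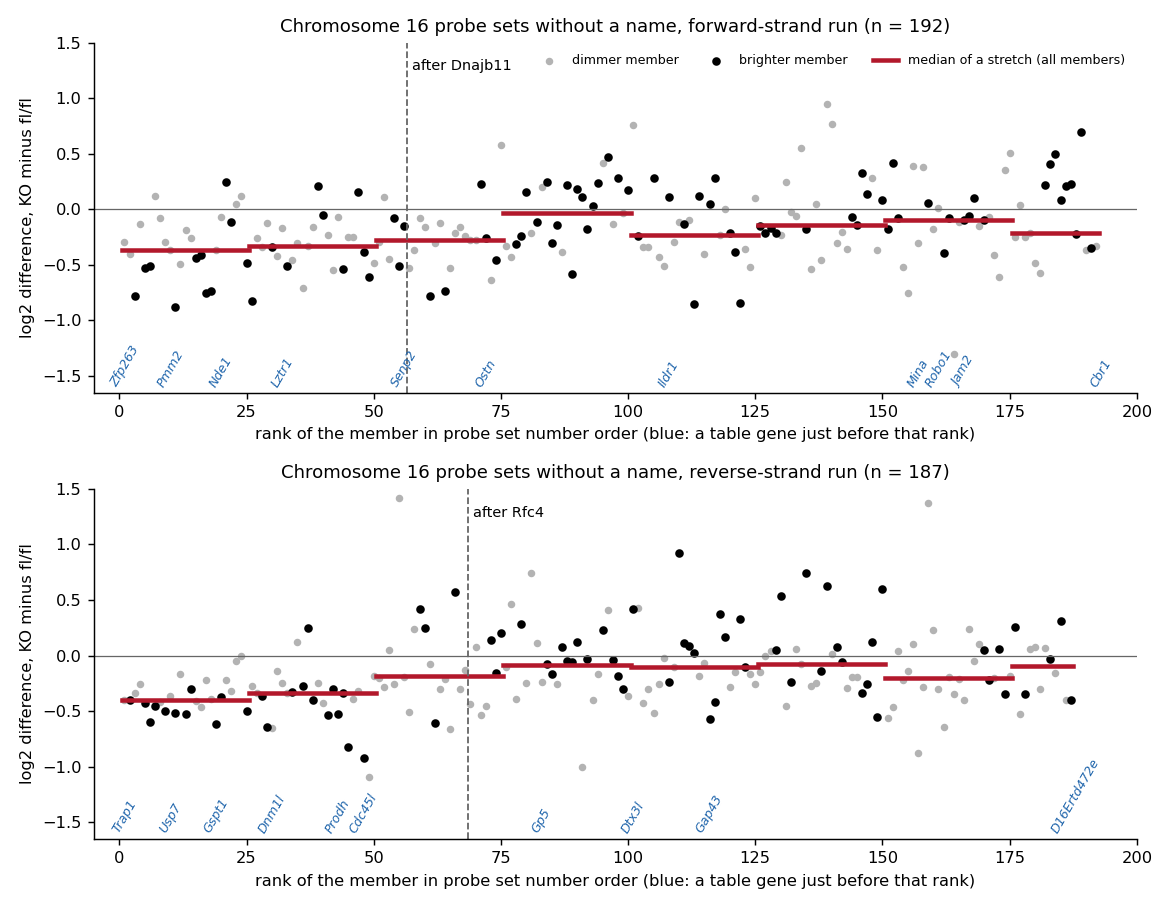
Log2 difference (vertical axis, Fh1Δ/Δ minus Fh1fl/fl, mean of 2 arrays each) of each chromosome 16 probe set without a name, by rank in probe set number order (horizontal axis), for the 192 members of the forward-strand run and the 187 of the reverse-strand run; grey points are dimmer and black points brighter members, red bars are medians of stretches of 25 members, the last of each run shorter, and dashed lines stand after Dnajb11 and Rfc4. In both panels the first stretch medians, -0.37 and -0.40, are the lowest, and the stretches that start after the dashed lines have medians between -0.23 and -0.03.

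Stretches of 25 members in number order show how far the low values reach. On the forward strand, the first stretch ran from Zfp263, a zinc finger protein, to Top3b, a topoisomerase, and had a median of -0.37 (21 of 25 lower). The next, from Nde1, which anchors dynein at centrosomes, to Ece2, had -0.33 (23 lower), and the one after it, from Ece2 to Dlg1, a polarity scaffold, had -0.28 (22 lower), although only 6 of its members are proximal. The following stretch, between Dlg1 and Hspbap1, had -0.03, with 13 lower and 12 higher, and its 17 brighter members had a median of 0.11. The stretches further along had -0.23 up to Mina, a ribosomal oxygenase, -0.14 between Ildr1 and Mina, -0.10 from Ildr1 to Cbr1, and -0.21 in the last 17 members from Jam2 to Cbr1. For the stretch between Ildr1 and Mina the 4 pairs of arrays gave -0.09 to 0.04, and for the last one -0.05 to 0.08, so that neither median lay within its own pairs. In the last stretch 9 members were lower and 8 higher, and 7 of its 9 brighter members were higher, with a median of 0.22.

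On the reverse strand the first 2 stretches were the low ones. The first stretch, from Trap1, a mitochondrial chaperone of the Hsp90 family, to 0610037P05Rik, had a median of -0.40 with 24 of 25 members lower, and all 11 of its brighter members were lower in Fh1Δ/Δ cells. The next, from Gspt1, a factor that ends translation, to Parl, a protease of the inner mitochondrial membrane, had -0.34 with 23 lower. The stretch from Cdc45l, part of the replicative helicase, to Gp5, a platelet glycoprotein, had -0.19 with 16 lower, and 5 of its 7 brighter members were higher, although 18 of its 25 members are proximal. From Rfc4, a subunit of the clamp loader of replication, to Dtx3l, a ubiquitin ligase, the median was -0.08. The members from Dtx3l onwards had medians of -0.10, -0.08, -0.20 and -0.10 in their stretches, the last of 12 members, with brighter medians of 0.10, 0.05, -0.08 and -0.03.

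Arrays of the same genotype also differed, by less than the proximal members did between genotypes. Over all members, replicate 2 minus replicate 1 had a median of -0.01 in Fh1Δ/Δ cells and 0.03 in Fh1fl/fl cells, and over proximal members it was 0.01 in Fh1Δ/Δ cells and 0.03 in Fh1fl/fl cells. Over brighter members the replicates of Fh1Δ/Δ cells lay further apart, with a median of -0.12, as large as the -0.12 between genotypes, and -0.01 in Fh1fl/fl cells. For brighter proximal members these medians were -0.14 in Fh1Δ/Δ cells and 0.02 in Fh1fl/fl cells, against -0.44 between genotypes, and for brighter distal members -0.09 in Fh1Δ/Δ cells and -0.01 in Fh1fl/fl cells, against -0.03 between genotypes. Replicate differences do not enter the contrast between genotypes. They are not free of the rule that chose members, since passing the authors' comparison can depend on the spread between replicates. In the first stretch of the forward-strand run, the 4 pairs gave medians of -0.37 to -0.25, against replicate differences of -0.03 in Fh1Δ/Δ cells and 0.00 in Fh1fl/fl cells. In the first stretch of the reverse-strand run the pairs gave -0.46 to -0.32, against 0.09 in Fh1Δ/Δ cells and 0.04 in Fh1fl/fl cells. Some stretches further along gave no difference between genotypes beyond that between replicates. The sixth stretch of the forward-strand run had pairs from -0.09 to 0.04, and replicates there differed by -0.14 in Fh1Δ/Δ cells and 0.14 in Fh1fl/fl cells.

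**Figure D2:**
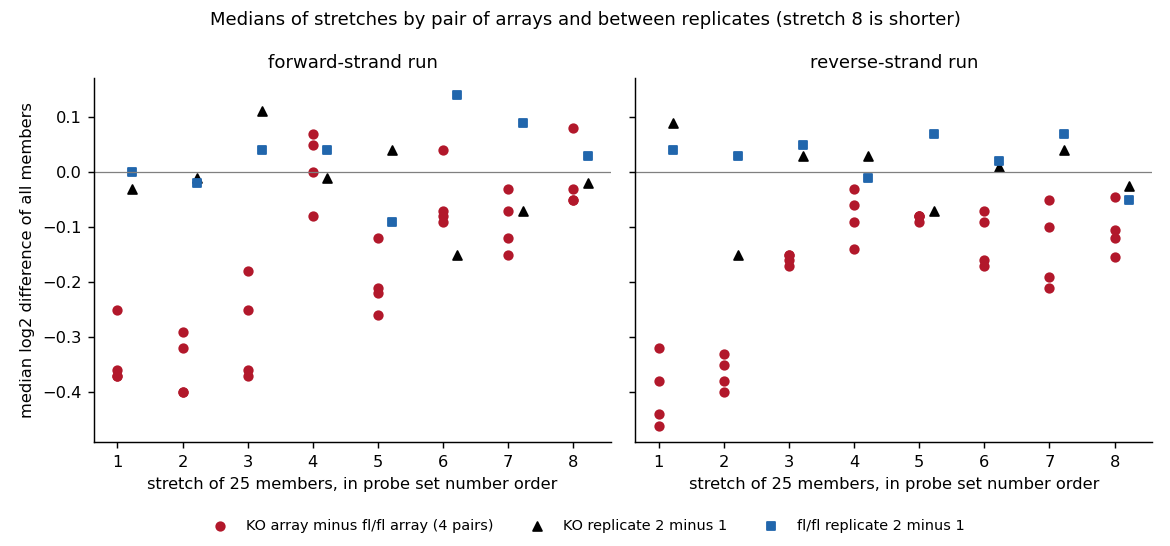
Median log2 difference of the members of each stretch (vertical axis), by stretch in probe set number order (horizontal axis) on the forward-strand run (left) and the reverse-strand run (right); red points are the 4 pairs of 1 Fh1Δ/Δ and 1 Fh1fl/fl array, black triangles replicate 2 minus replicate 1 of Fh1Δ/Δ cells and blue squares the same for Fh1fl/fl cells. In the first 2 stretches of both runs every pair lies at -0.253 or lower, below every replicate difference. From the fourth stretch on every pair lies at -0.264 or higher. The lowest of these, in the fifth stretch of the forward-strand run, thus lies slightly below the highest pair of the first stretch of that run.

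The intervals between named genes place these values more closely. Between Usp7, a deubiquitinase, and Litaf, an endosomal membrane protein, all 9 members were lower in Fh1Δ/Δ cells, with a median of -0.39. Of the 8 members between Gspt1 and 0610037P05Rik, 7 were lower (median -0.30), and of the 17 between Lztr1, a substrate adaptor that limits Ras, and Ap2m1, a subunit of the clathrin adaptor, 15 were lower (-0.25). Not every proximal interval was low. The 7 members between Nde1 and Top3b had a median of -0.07 with 4 lower, and the 6 between Parl and Tmem41a had a median of 0.08. Just past the division, the strands differed. The 15 members between Dnajb11, a chaperone of the endoplasmic reticulum, and Ostn, a secreted peptide hormone, had a median of -0.28 with 14 lower, although they count as distal, and the 3 brighter ones had a median of -0.74 with 2 lower. On the other strand, the 14 members between Rfc4 and Gp5 had a median of -0.01, with 7 lower and 7 higher.

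The distal intervals with the most members had medians, over all their members, near the -0.11 of all probe sets. The interval that holds the most members, 72, runs from Gap43, a protein of nerve growth cones, to D16Ertd472e, and had a median of -0.15, with 45 lower and a median of 0.01 over its 28 brighter members. The 49 members between Ildr1 and Mina had -0.14. Their 22 brighter members also had -0.14, with 14 lower, against 0.01 for the brighter unnamed probe sets of other chromosomes. The 29 between Dlg1 and Hspbap1 had -0.11, with 0.07 over 18 brighter members. The 27 between Jam2, a junctional adhesion molecule, and Cbr1, a carbonyl reductase, had -0.10, with 0.10 over 13 brighter members.

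In the values as deposited, the proximal difference was larger in brighter classes, whereas that of other chromosomes was nearer to 0 there. With all probe sets cut into 4 classes at the quartiles of mean level (5.57, 7.24 and 9.03), the proximal members had medians of -0.23, -0.33, -0.41 and -0.52, from the dimmest to the brightest class, over 34, 40, 39 and 11 members. In the same order, the unnamed probe sets of other chromosomes had -0.21, -0.23, 0.03 and -0.01, and the distal members -0.20, -0.22, 0.05 and -0.04. In the dimmest class the proximal members were thus like the rest of the array, and in both brighter classes their whole range over pairs, -0.51 to -0.36 and -0.59 to -0.44, lay below the ranges of the distal members and of other chromosomes. Of the 11 brightest proximal members 10 were lower in Fh1Δ/Δ cells, as were 33 of 39 in the class below and 39 of 40 in the one below that. Among unnamed probe sets of other chromosomes, 1727 of 3327, 1579 of 3421 and 2712 of 3675 were lower in these classes, in the same order.

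Dim probe sets are common among the members. The dimmest class holds 138 of them (34.9%), the next 89, the third 87 and the brightest 81 (20.5%). Their levels ran between 2.41 and 12.5 with a median of 6.67, against 6.99 for all probe sets without a name. The spread between replicates was widest where the members were dim, with a median SD of 0.17 in the dimmest class and 0.11 in the brightest.

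**Figure D3:**
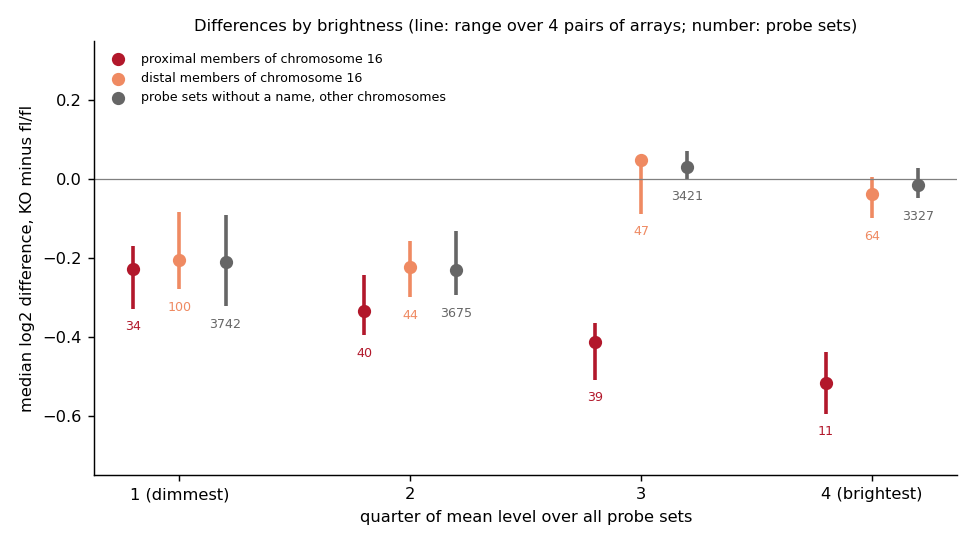
Median log2 difference (vertical axis, Fh1Δ/Δ minus Fh1fl/fl) by class of mean level over all probe sets, from dimmest to brightest (horizontal axis), for proximal and distal members of chromosome 16 and for probe sets without a name on other chromosomes; points are medians, lines the range over the 4 pairs of arrays, and numbers how many probe sets each point holds. The proximal medians go down to -0.52 in the brightest class, where the other 2 groups are at -0.04 and -0.01.

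Other chromosomes also stood away from the level of the array, so that a shift over many probe sets was not limited to the members. By the median of the probe sets without a name, chromosome 16 was the third lowest of 20 chromosomes, and by that of the brighter ones it was the fourth lowest. The 648 probe sets without a name on chromosome 10 had a median of -0.28, and -0.28 over brighter ones, of which 16.6% were higher in Fh1Δ/Δ cells. The 526 on chromosome 13 had 0.03, and 0.22 over brighter ones, and the 476 on chromosome 14 had 0.02 and, over brighter ones, 0.35. The brighter proximal members of chromosome 16, with -0.44, lay lower than the brighter probe sets of chromosome 10 as a whole. That comparison sets a part picked after its values were seen against whole chromosomes, and no test was made.

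The low stretches of chromosome 16 lay side by side. Of the 14 full stretches on chromosome 16, 4 had a median of -0.3 or below, and these are the first 2 of each run, as the plot by rank shows. On chromosome 10, 24 of 25 stretches were below 0 and 9 were at or below -0.3. None of 21 stretches on chromosome 13 and none of 19 on chromosome 14 was at or below -0.3. Of the 558 stretches on all chromosomes but 16, with chromosomes 10, 13 and 14 counted in, 19 were.

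**Figure D4:**
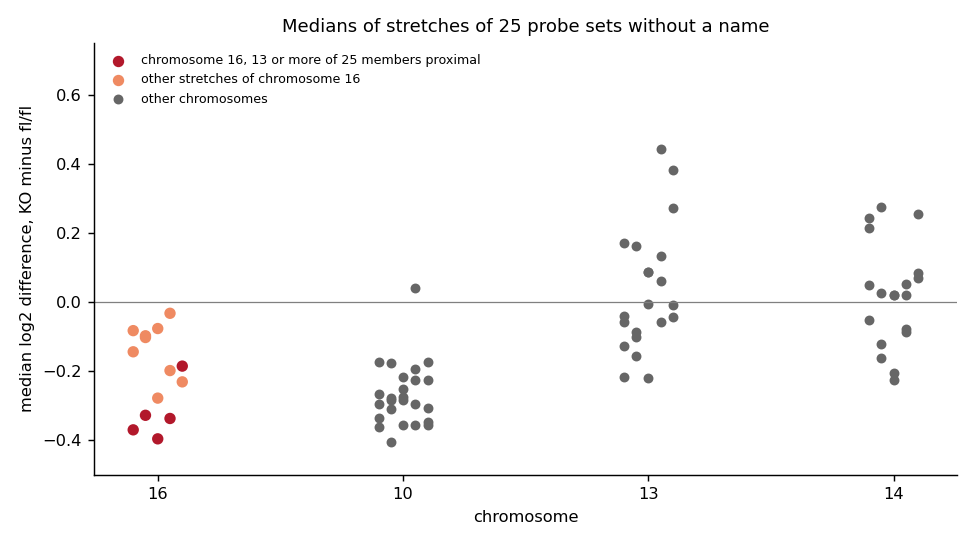
Medians of the log2 difference (vertical axis, Fh1Δ/Δ minus Fh1fl/fl) over full stretches of 25 probe sets without a name, by chromosome (horizontal axis); each point is 1 stretch, dark red where most of its members are proximal on chromosome 16, orange for the other stretches of chromosome 16 and grey for chromosomes 10, 13 and 14. The 14 points of chromosome 16 lie between -0.40 and -0.03, those of chromosome 10 between -0.41 and 0.04, and those of chromosomes 13 and 14 on both sides of 0.

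The table genes among which the members lie had larger differences in the same places, which follows in part from how both were chosen. All 46 table genes of the proximal part were lower in Fh1Δ/Δ cells, by the way the part was drawn, with a median of -0.72 and a range of -1.50 to -0.41. The 18 distal table genes ran between -2.13 for Ildr1, a protein of tricellular junctions, and 2.91 for Ostn, with 10 lower and 8 higher. These counts cover only the 64 table genes mapped to chromosome 16 by their entry. They leave out Hira, Crkl, Trmt2a, Adamts1, Adamts5 and Hlcs, which have a name in the table and are given below. Just outside the rule, the mapped table gene of chromosome 16 with the smallest difference was Opa1, at 0.30. Just inside it, 324 of the 395 members were within 0.5 of 0.

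Genes known to lie on either part were looked up from lists drawn up with earlier results of these data known. Of 27 genes listed for the proximal side of the chromosome, 9 have a name in the table, and 7 were lower, 0 higher and 2 did not pass (adjusted p under 0.05 from limma, which called 6.25% of all probe sets higher and 4% lower). Hira, a chaperone that deposits histone H3.3, had levels of 8.42 and 8.48 in Fh1Δ/Δ cells, against 9.34 and 9.35 in Fh1fl/fl cells (log2 difference -0.89, standard error 0.11). The arrays of both genotypes did not overlap. Ranbp1, a partner of the GTPase Ran, and Trmt2a, a tRNA methyltransferase, each differed by -0.85, Zdhhc8, a palmitoyltransferase, by -0.70, and Crkl, a signalling adaptor, by -0.66.

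The list reaches past the division used for the members, and its last genes went both ways. Hes1, a repressor in Notch signalling, had -0.72, whereas Opa1, which fuses inner mitochondrial membranes, had 0.30 (adjusted p = 0.130 from limma) and Dlg1 0.34 (adjusted p = 0.109 from limma). These genes lie among the distal members. Of 39 genes listed for the distal side, 4 have a name. Of these, 2 were higher (Jam2, 1.67, and Hlcs, which attaches biotin to carboxylases, 0.55) and 2 lower (Adamts1, -1.0, and Adamts5, -0.83, both metalloproteases of the ADAMTS family). Since only genes that passed the authors' test carry a name, these counts are not independent evidence of a direction.

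Counts of single members rest on the contrast that chose them, so they are given beside the counts over all probe sets and nothing is read from them. Both Fh1Δ/Δ arrays lay below both Fh1fl/fl arrays in 208 members (52.7%), against 40.7% of all probe sets and 40.5% of those without a name. Both lay above in 60 members (15.2%), against 25.6% of all probe sets and 22.2% of those without a name. Among proximal members 87 (70.2%) lay below and 9 (7.26%) above, and among distal members 113 (44.3%) lay below and 47 (18.4%) above. At an adjusted p under 0.05, limma placed 20 members lower and 7 higher, of 395. It called 4% of all probe sets lower and 6.25% higher, and 1.98% of those without a name lower and 2.52% higher. Of the 20, 13 are proximal, 6 distal and 1 between the runs, and of the 7, 2 are proximal and 5 distal. These numbers depended on single arrays, with 0 to 10 lower and 0 to 2 higher when 1 array was left out, and centring the arrays on their medians gave 40 lower and 5 higher.

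A few members had large differences. In 131 members the genotypes did not overlap and the higher mean lay above the median of the array. Of these, 89 were lower and 42 higher in Fh1Δ/Δ cells. Without the limit on the mean, 40.7% of all probe sets lay below and 25.6% above without overlap. The share of all probe sets under the same limit was not counted, so nothing is read from the 89 and 42. The 2 largest differences in each direction are given here. Probe set 6839334, between Pmm2, an enzyme of protein glycosylation, and Snn, had 9.49 and 9.55 on the Fh1Δ/Δ arrays, against 10.30 and 10.49 on the Fh1fl/fl arrays. The log2 difference was -0.88 with a standard error of 0.12, a ratio of 0.545. Probe set 6844362, between Cdc45l and Parl, had 9.38 and 9.06 on the Fh1Δ/Δ arrays, against 9.97 and 10.31 on the Fh1fl/fl arrays (-0.92, standard error 0.18, a ratio of 0.527). Both are proximal and in the brightest class, and they lie on different strands.

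Both of the largest increases of this kind were distal. Probe set 6845551, between Dtx3l and Gap43, had 8.0 and 7.56 on the Fh1Δ/Δ arrays, against 6.78 and 6.94 on the Fh1fl/fl arrays (0.92, standard error 0.18, a ratio of 1.90). Probe set 6840694, between Dlg1 and Hspbap1, had 7.52 and 7.21 on the Fh1Δ/Δ arrays, against 6.64 and 6.58 on the Fh1fl/fl arrays (0.76, standard error 0.15, a ratio of 1.69). In each, the Fh1Δ/Δ arrays were further apart than the Fh1fl/fl arrays. Differences over all members ran from -1.30 to 1.42, with 3 members lower and 2 higher by 1 or more, and these 5, singled out after their values were seen, are all in the dimmest class. The highest, between Cdc45l and Parl, had 3.20 and 3.79 on the Fh1Δ/Δ arrays, against 1.97 and 2.19 on the Fh1fl/fl arrays. At such levels the size of a difference is uncertain, since an array gives no count of molecules and its precision rests on 2 arrays a group.

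**Figure D5:**
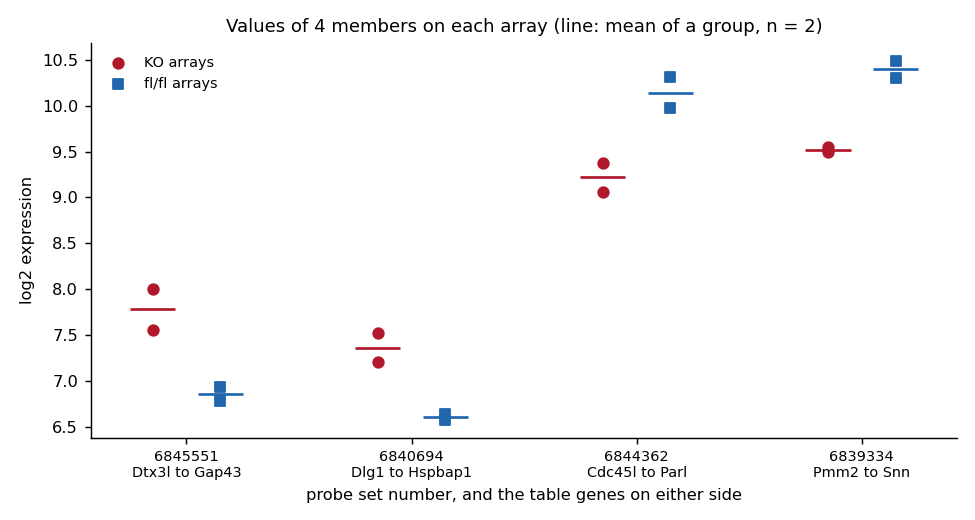
Log2 expression (vertical axis) of 4 members on each array, named by probe set number and by the table genes on either side (horizontal axis); red circles are Fh1Δ/Δ arrays, blue squares Fh1fl/fl arrays and lines the mean of 2 arrays. The 2 members on the left are higher and the 2 on the right lower in Fh1Δ/Δ cells, with no overlap between the genotypes.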

How the data were processed

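Total RNA of both genotypes, 2 samples each, was labelled for Affymetrix whole-transcript arrays. The authors deposited log2 values per probe set, already normalized between arrays. RMA, Partek and the build mm9 are named in the submitters' processing notes, without versions. The authors' comparison table served for probe set numbers, gene names and chromosomes only. It also holds the p-values and fold changes of the authors' own test, which were not used, and 12 columns of values in the deposited tables belong to no sample analysed here and were not used either. Each gene_assignment entry there is cut after 80 characters, and 10 entries cut after a lone "1" were taken to give no chromosome. Placement between neighbours was right for 1314 of 1316 table probe sets left out in turn, and for 61 of the 62 placed on chromosome 16. After D16Ertd472e, no probe set was placed on chromosome 16. RefSeq genes of GRCm38.p6 gave only current names, strand and gene order, since their build differs from that of the files.

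All 16755 probe sets were fitted on genotype alone with the lmFit and eBayes functions of limma 3.58.1 (R 4.3.3; 2 residual and 3.45 prior degrees of freedom), with no filter on dim probe sets and Benjamini-Hochberg adjustment over all, and the code was tested on simulated data. An exact permutation test of 2 against 2 arrays cannot give a p below 0.333. Medians and counts are descriptions, given with the range of the same median over the 4 pairs of arrays, which need not contain it, since a median of mean differences is not a mean of medians. The members and the gene lists were chosen with earlier results of these data known. Members named by number are the 2 largest differences in each direction among those with genotypes that do not overlap and a higher mean above the median; named genes are those that flank stretches or stand in the lists. Other settings tried were a replicate block, leaving out each array, quantile normalization, median centring, removal of a loess trend with brightness (span 0.4), filters on dim probe sets, other placements, other variance models and other thresholds.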

Additional observations from a re-analysis of the deposited data

How the results depend on the processing

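The lower level of proximal members was kept under each scaling tried: brighter proximal members had a median log2 difference of -0.44 as reported, -0.53 after median centring, -0.52 after quantile normalization, -0.46 with the brightness trend removed and -0.50 to -0.41 without 1 array. Brighter distal members had -0.03, and -0.12, -0.05 and 0.01 under these scalings in the same order, and -0.05 to 0.01 without 1 array. The gap between brighter proximal and brighter distal members was -0.41, -0.45 to -0.41 without 1 array, and -0.58 with the table's probe sets added. The median of all probe sets was -0.11 as deposited, -0.20 after centring, -0.04 after quantile normalization and 0.00 with the trend removed, and the members' median moved with it, to -0.30, -0.10 and -0.0518 in the same order. It was -0.12 without the dimmest 50%, -0.25 with the table's probe sets and -0.22 to -0.17 without 1 array. For brighter members, the median was -0.21 after centring, -0.18 after quantile normalization, -0.24 with the table's probe sets, -0.067 above the upper quartile and -0.17 to -0.0863 without 1 array. The percentage of brighter members that were higher was 31.6 after centring, 32.4 with the table's probe sets and 32.5 to 40 without 1 array. The median of the brightest class minus that of the dimmest was 0.14 (0.04 to 0.23 without 1 array) and changed sign to -0.02 both after quantile normalization (-0.0227) and with the trend removed (-0.0186), settings that act on the relation to brightness by construction. The larger replicate difference over members was 0.03, and 0.0639 after centring; over brighter members it was -0.12, between the Fh1Δ/Δ arrays.

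Counts of members placed lower (20) and higher (7) by limma moved most. They were 0 to 10 lower and 0 to 2 higher without 1 array, 36 lower after quantile normalization, 40 lower after centring, 14 higher with the trend removed, 57 lower and 16 higher without the dimmest 25%, 49 lower and 17 higher without the dimmest 50%, 69 lower and 13 higher with the table's probe sets, 49 lower and 18 higher with trend and robust, 66 lower and 21 higher at an adjusted p under 0.10, and 0 either way at 0.01 or in an unmoderated test, which gave 74 members at an unadjusted p under 0.05. The cause was not tested, except that a filter or another threshold changes the counts by construction. The counts over all probe sets moved as well. There limma called 1048 higher and 671 lower as reported, and 809 higher and 1058 lower after centring. It called 1087 higher and 765 lower after quantile normalization, 1178 higher and 506 lower with the trend removed, and 1011 higher and 756 lower with the replicate block. For the other settings no count over all probe sets is given, so nothing is read from the members' counts there. The labels number the replicates 1 and 2 in both genotypes, but nothing says that a number marks a shared culture or day, and deviations of same-numbered arrays correlated at 0.106. With the replicate block, 18 members were lower and 9 higher, and the medians were as reported. Reading the cut map fields as chromosome 1, an alternative chosen after seeing the data as were the summaries by position, brightness and replicate, left 385 members.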
